A study of Caenorhabditis elegans with 2 samples.

Results

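The C-type lectin genes of Caenorhabditis elegans were taken as all protein-coding genes whose symbol begins with clec-, which gave 240 of the 19973 protein-coding genes of the WBcel235 annotation. No measured value entered this choice. Chromatin immunoprecipitation with sequencing was performed on whole hermaphrodites at the L4 larval stage. The worms were of strain OP248, a transgenic line in which MES-2 is fused at its C terminus to GFP and FLAG. Chromatin was sheared by sonication, and the fusion protein was precipitated with an anti-GFP antibody. The 2 samples are biological replicates of this 1 group, so no condition was compared with another and the replicates were the only measure of experimental error. Because whole animals were used, sites in different tissues cannot be told apart.

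MES-2, orthologous to Enhancer of zeste, is the subunit of Polycomb repressive complex 2 that methylates lysine 27 of histone H3, a mark of repressed chromatin. C-type lectin-like proteins share a fold that binds sugars or other ligands, and many are secreted. In C. elegans they form a large family whose members often lie in tandem runs. Several are made in the intestine, and a number are induced by bacterial infection, in part through the p38 MAP kinase pathway and GATA factors such as ELT-2.

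The measurement is the position and signal of peaks in 4 lists that the authors deposited on the ce11 build, which is the same assembly as WBcel235. The thresholded list, made from both replicates with the irreproducible discovery rate (IDR), held 5501 peaks with signals from 73.5 to 2503 and a median of 140. The pooled list and the 2 replicate lists each held 30000 regions, reaching down to a signal of 17.9, 8.25 and 9.37, respectively. The sources used here do not give the scale of the signal, which was read only against others of its own list. A gene was called bound when a thresholded summit, the highest point of a peak, lay within 500 bp of any of its annotated transcript starts. Sequencing depth is unknown, since no read counts come with the lists, and the absence of a summit is not evidence that MES-2 was absent. No test of a difference between sets of genes was made, so the shares given here are descriptions. No control precipitation was analysed here, so signal owed to MES-2 and signal that any precipitation gives cannot be told apart.

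Of the 240 clec genes, 6 were bound, namely clec-57, clec-126, clec-78, clec-87, clec-62 and clec-196. This was 2.50% of the family (exact Clopper-Pearson 95% interval 0.923% to 5.36%, counting error only), against 16.6% of all protein-coding genes. The 201 bases centred on the summit are shown for 4 of the 6, because what lies under the summit differs from gene to gene. All are from the forward strand of WBcel235. In the windows of clec-57 and clec-126 capitals mark bases of a small nuclear RNA gene and of a transfer RNA gene. In the windows of clec-78 and clec-62 capitals mark the GATA-type word TGATAA or its reverse complement.
clec-57, chrV:14468689-14468889: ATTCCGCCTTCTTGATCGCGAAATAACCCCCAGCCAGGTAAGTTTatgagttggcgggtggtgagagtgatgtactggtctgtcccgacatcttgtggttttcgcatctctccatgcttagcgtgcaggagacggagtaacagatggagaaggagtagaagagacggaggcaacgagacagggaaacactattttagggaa
clec-126, chrII:3518911-3519111: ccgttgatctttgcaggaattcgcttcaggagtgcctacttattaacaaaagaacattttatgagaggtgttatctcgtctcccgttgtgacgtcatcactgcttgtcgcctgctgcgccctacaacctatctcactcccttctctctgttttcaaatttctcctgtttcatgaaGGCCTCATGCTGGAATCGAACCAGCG
clec-78, chrIV:3988723-3988923: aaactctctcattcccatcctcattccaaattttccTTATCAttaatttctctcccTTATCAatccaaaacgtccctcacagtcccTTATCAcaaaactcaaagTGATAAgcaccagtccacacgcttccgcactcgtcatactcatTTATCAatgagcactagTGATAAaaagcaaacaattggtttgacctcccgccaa
clec-62, chrII:12894797-12894997: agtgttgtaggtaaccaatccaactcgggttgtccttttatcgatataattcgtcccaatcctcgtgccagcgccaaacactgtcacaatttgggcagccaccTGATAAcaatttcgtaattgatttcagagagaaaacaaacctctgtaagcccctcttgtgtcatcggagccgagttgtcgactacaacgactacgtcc

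The summit of highest signal in the family was that of clec-57 (V:14469231-14472448, plus strand). Its peak at V:14468724-14468882 had a signal of 247 in the thresholded list, rank 1412 of 5501, with the summit 442 bp upstream of the gene. In the replicate lists the overlapping regions had signals of 113 in replicate 1, rank 1635, and 100.02 in replicate 2, rank 1904. Both replicates thus placed it among their 5501 strongest regions. The summit lay closer to another gene: the snRNA gene F08H9.11 on the minus strand starts 56 bp from it, and 45 of the 201 bases printed above belong to that gene. On the other side of the snRNA gene lies srz-97, of a chemoreceptor family, which is arranged head to head with clec-57 at a distance of 985 bp. The 5 clec genes of the run to which clec-57 belongs include no other bound member.

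At clec-126 (II:3519494-3520712, plus strand) 2 thresholded summits lay in the window. The higher, with a signal of 163 and rank 2343, was 483 bp upstream of the gene, in a peak at II:3518962-3519095. The lower, with a signal of 147 and rank 2624, was 178 bp upstream, in a peak at II:3519237-3519414. A tRNA gene accompanied each of them. The first summit lay 146 bp from the start of one tRNA gene, 26 bases of which end the sequence printed above, and the second lay inside another, 6 bp from its start. The replicates differed here. The higher peak overlapped a replicate 2 region of signal 102, rank 1860, but no region of replicate 1, whose nearest summit, of signal 111 and rank 1671, was 301 bp away at the second tRNA gene. The window of the first peak also holds TGACGTCA, a word of the kind bound by CREB and ATF factors, which 1.38% of the 5501 summit windows hold.

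Across the family, 3 clec genes had a start within 500 bp of the start of a tRNA, snRNA or snoRNA gene, which is 1.25% against 0.936% of all protein-coding genes. These were clec-57, clec-126 and clec-99, and clec-99 had no pooled summit. Among bound genes the summit lay within 500 bp of such a start for 2 of 6 clec genes, 33.3%, and for 131 of 3311 bound genes of any kind, 3.96%. Without the summits near these small RNA genes, 4 clec genes, 1.67%, remained bound, against 15.96% of all genes. The part of the small RNA genes in the 2 signals was not tested.

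**Figure D1:**
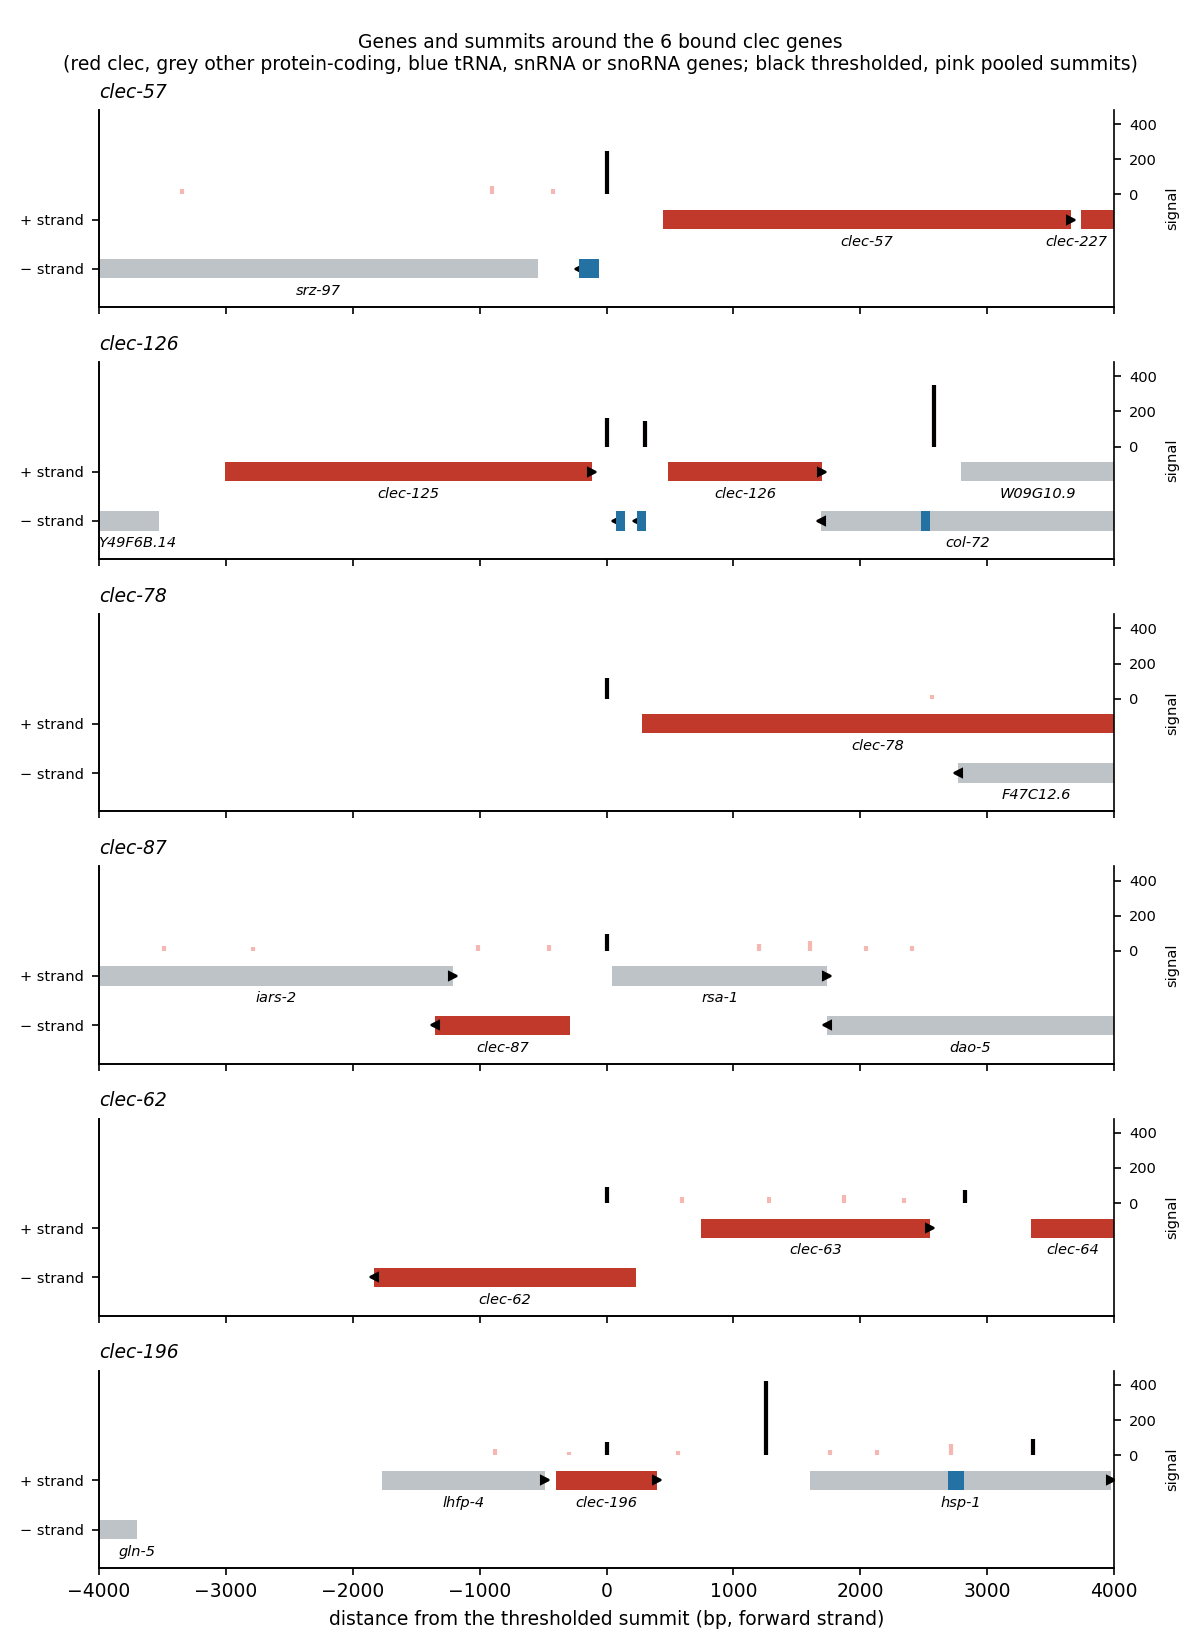
Genes and summits around the 6 bound clec genes, drawn by distance from the thresholded summit in base pairs along the forward strand. Bars are genes (red clec, grey other protein-coding, blue tRNA, snRNA or snoRNA) with an arrowhead at the 3′ end, and vertical lines are thresholded (black) and pooled (pink) summits with their signal on the right axis. The clec-57 summit lies between the gene and an snRNA gene, and that of clec-126 lies beside tRNA genes.

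The largest gene of the family, clec-78 (IV:3989102-4014235, plus strand, 25134 bp with other genes nested in it), had no such gene beside its summit. Its peak at IV:3988771-3988837 had a signal of 116, rank 3346, with the summit 279 bp upstream of the gene. Replicate 1 gave the overlapping region a signal of 24.7, rank 9277, and replicate 2 a signal of 66.97, rank 3028. The peak was therefore among the 5501 strongest regions of replicate 2 and not of replicate 1. The printed window holds TGATAA on one strand or the other 6 times. Counted after that sequence had been seen, 951 of the 5501 thresholded summit windows, 17.3%, held the word at least once, 253 held it at least 2 times, and 1, that of clec-78, held it 6 times or more. Inside the gene the pooled list placed 9 further summits, the highest with a signal of 56.7, all below the threshold.

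Summits inside the gene body were found for clec-62 and clec-196. The peak of clec-62 (II:12893062-12895128, minus strand) at II:12894795-12894998 had a signal of 91.4, rank 4320, and its summit lay in a coding exon, 201 bp downstream of the nearer of 2 annotated starts and 231 bp downstream of the more upstream one. The replicates gave it 43.1, rank 4626, and 23.3, rank 10543. Of the 201 bases printed above 160 are coding. The neighbouring clec-63, whose start lies 510 bp from the more upstream start of clec-62 and on the opposite strand, had only a pooled summit of signal 34.5. A further thresholded summit of signal 74.5 lay between clec-63 and clec-64 of the same run, 518 bp from the start of clec-64 and so just outside the window.

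The peak of clec-196 (IV:17276956-17277748, plus strand) at IV:17277336-17277396 was close to the foot of the thresholded list, with a signal of 74.3, rank 5423. Its summit lay in an intron, 71 bp downstream of the nearest of 3 annotated starts. Replicate 1 gave a signal of 50.8, rank 3858, and replicate 2 a signal of 13.5, rank 21195. The next gene, hsp-1, which encodes a constitutive Hsp70 chaperone, was bound with a signal of 422. The pooled list shows how near the threshold some unbound members were: clec-221, the next clec gene by pooled signal, had 69.5, rank 5883.

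The remaining bound member, clec-87 (I:10184462-10185520, minus strand), shares its promoter region with rsa-1, which encodes a regulator of protein phosphatase 2A in spindle assembly. The starts of clec-87 and rsa-1 are 335 bp apart and point away from each other. The peak at I:10185759-10185827 had a signal of 96.2, rank 4093, and its summit lay 290 bp upstream of clec-87 but 45 bp from the start of rsa-1. Replicate 1 gave 31.9, rank 6576, and replicate 2 gave 54.3, rank 3789. On the other side, iars-2, which encodes an isoleucyl-tRNA synthetase, was also bound, with a signal of 98.4. When each summit was given to its nearest start among protein-coding, tRNA, snRNA and snoRNA genes, a rule added after the values were seen, 3 clec genes kept a summit: clec-62, clec-78 and clec-196. This rule was not applied to all genes. With protein-coding starts alone, 5 clec genes kept a summit, 2.08%, against 13.5% of all genes.

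As a group, the 6 had a median thresholded signal of 106, against 207 over the 3311 bound genes. The highest summit was upstream of the start for 4 of the 6, 66.7%, and for 87.1% of all bound genes. Only clec-57 and clec-126 had a summit at the start among the strongest 5501 regions of both replicate lists, which is 0.833% of the family against 13.5% of all genes, and for clec-126 the 2 replicate summits belong to different peaks. Inside genes, 2 clec genes, 0.833% (0.101% to 2.98%), held a thresholded summit, against 7.27% of all genes.

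The lists of lower signal gave larger counts but the same order of groups. In the pooled list 28 clec genes, 11.7% (7.89% to 16.4%), had a summit in the window, against 34% of all genes. Replicate 1 gave 48 clec genes, 20%, against 35.7% of all genes. Replicate 2 gave 33, 13.75%, against 35.8%. Both replicate lists held a summit for 18 clec genes, 7.5%, against 27.6% of all genes. Inside the gene the pooled list had a summit in 41 members, 17.1%, against 35.1% of all genes.

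**Figure D2:**
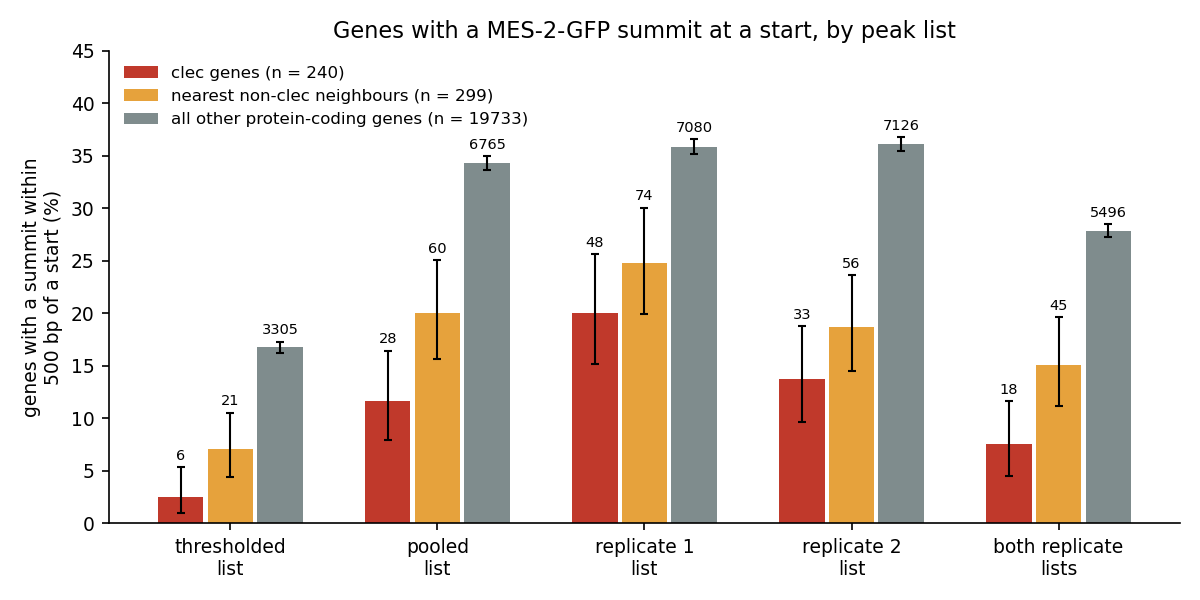
Share of genes with a summit within 500 bp of a start, in percent, for the 240 clec genes (red), their 299 nearest non-clec neighbours (orange) and the other 19733 protein-coding genes (grey), by peak list. Bars are shares, error bars exact 95% intervals and the numbers above them counts of genes. In each list or list pair the clec share was lowest and the share of the other genes highest.

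A smaller share of clec summits than of all summits was found in both replicates. A summit at the start was found in at least 1 replicate list for 63 members, of which 18 were in both, 30 in replicate 1 only and 15 in replicate 2 only. The 18 are 37.5% of the replicate 1 members and 54.5% of the replicate 2 members. Over all genes the 5514 in both lists are 77.4% of those in replicate 1 and 77.0% of those in replicate 2. The clec signals were lower as well: the median of the 48 replicate 1 members was 18.4 against 30.6 over the 7128 genes of that list, and the median of the 33 replicate 2 members was 17.1 against 35.8 over 7159 genes. A low signal and a low overlap moved together here, and the part of the one in the other was not tested.

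**Figure D3:**
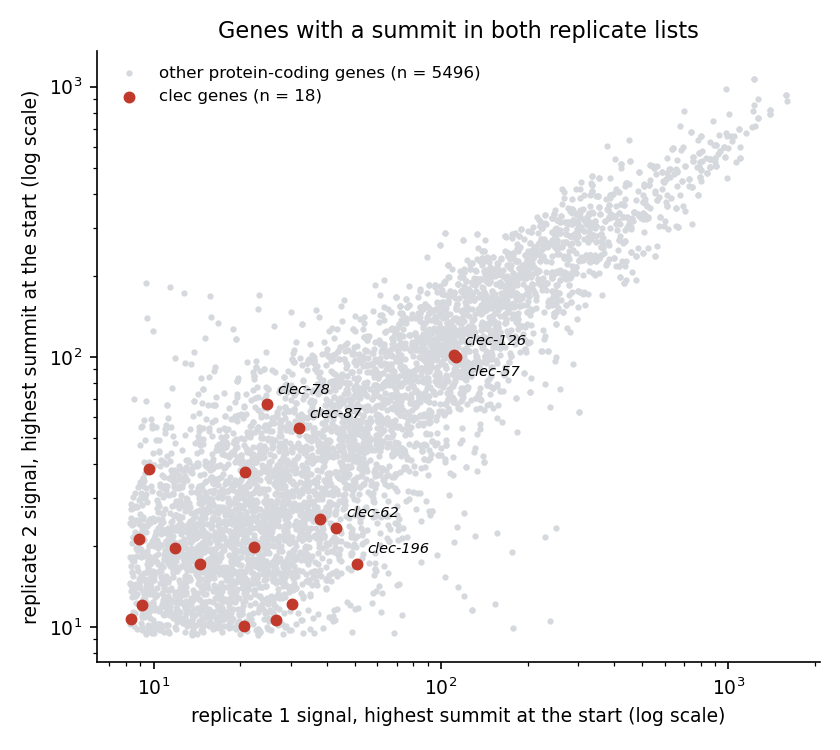
Signal of the highest summit within 500 bp of a start in replicate 1 (horizontal, log scale) and replicate 2 (vertical, log scale), for the 18 clec genes (red) and the 5496 other protein-coding genes (grey) found in both lists. The 6 bound members are named. For clec-126 and clec-196 the 2 replicate values belong to different summits of the window, and most clec genes lie at the low end of both axes.

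The highest signal seen in 1 replicate alone was at clec-140 on chromosome II. Its summit 225 bp upstream of the start had a signal of 117 in replicate 1, rank 1572, the highest of any clec gene in that list. Replicate 2 had no summit within 500 bp, its nearest being 912 bp away, and the nearest pooled summit was 22076 bp away. At clec-150 on chromosome III, replicate 1 had a summit of signal 50.6, rank 3875, 6 bp from the start, and the nearest pooled summit was 20404 bp away. The converse was seen at clec-50 on chromosome V, with a replicate 2 signal of 68.0, rank 2983, 103 bp upstream, and the nearest replicate 1 summit 2654 bp away. These 3 genes were chosen after their values were seen. Such gaps were not particular to clec genes. At syp-3 replicate 1 had a signal of 114, with the nearest pooled summit 23706 bp away. At mis-12 the replicates had 84.9 and 118, with the nearest pooled summit 19667 bp away. The pooled list thus lacks some regions with such signals in both replicates, and how many was not counted.

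The 22 members with a pooled summit but no thresholded one had signals from 20.2 to 69.5. Over all 28 the median was 39.1, against 70.5 over the 6793 genes with a pooled summit. The highest was clec-221 on chromosome V, with 20.8 in replicate 1 and 37.6 in replicate 2 and the summit in its coding exon 462 bp downstream. It was followed by clec-178 on chromosome IV, with a pooled signal of 64.4, 37.8 in replicate 1 and 25.1 in replicate 2. That gene lies within an intron of skn-1, which encodes an Nrf-like factor of the oxidative stress and immune response, and the summit falls in an intron of both. The next were clec-80 with 61.2, clec-85 with 55.2, clec-128 with 49.9, clec-265 with 45.3, clec-1 with 41.8, clec-186 with 41.1, clec-83 with 37.1 and clec-104 with 36.9. Of these 10 genes, 6 had a summit in both replicate lists, and clec-1 had one in neither. Of all 28 pooled members, 14 had one in both replicate lists, against 5197 of the 6793 genes with a pooled summit. For 4 of the 28 it was in neither, against 260 of the 6793. Inside the gene, the highest pooled signals without a thresholded summit were again those of clec-221, clec-178 and clec-80, followed by the 56.7 of clec-78 and the 55.2 of clec-85. Pooled summits lay upstream of the start for 15 of 28 clec genes, 53.6%, and for 68.3% of all genes with one.

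A further 39 members, 16.25%, had a summit at the start in a replicate list but not in the pooled list, against 2240 of all genes, 11.2%. In this class the clec share was the higher one. For 4 of them, 1.67% against 1.59% of all genes, the summit was in both replicate lists, namely clec-49, clec-53, clec-89 and clec-100. A pooled summit lay just outside the window at clec-53, 569 bp from a start, and at clec-89, 599 bp. At clec-49 the nearest was 931 bp away. The nearest thresholded summit to clec-53 was also at 569 bp. The remaining 173 members, 72.1% against 54.8% of all genes, had no summit at a start in the pooled list or either replicate list. Among these 173, 40 had a summit somewhere inside the gene in at least 1 list and 133 had none at all. Of 6 members often studied in infection, picked after the values were seen, clec-39, clec-60 and clec-67 had no summit at a start in any list. The signal at clec-4 was 8.97 in replicate 1, with no summit in replicate 2, and clec-49 had 14.5 in replicate 1 and 17.1 in replicate 2. The sixth, clec-85, is the pooled summit named above, with 9.63 in replicate 1 and 38.5 in replicate 2.

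The family is unevenly spread, with 86 genes on chromosome V, 53 on IV, 48 on II, 36 on I, 14 on III and 3 on X. On chromosome V, 1 of 86 clec genes was bound, 1.16%, against 10.4% of the other genes there. On IV it was 2 of 53 against 15.4%, on II 2 of 48 against 16.1%, and on I 1 of 36 against 24.0%. None of the 14 on III was bound, where a count of 0 allows up to 21.4% (3 counts), against 26.6% of other genes, and the 3 on X included none, although 1 of them, clec-265, had a pooled summit, which is 33.3% against 30.9% of other genes on X. On each of the 5 autosomes the clec share was below that of the other genes, and the pooled list gave the same order. Among the autosomes the difference in percent was smallest on chromosome II in the pooled and replicate lists taken singly. There 11 of 48 clec genes, 22.9%, had a pooled summit against 34.6%, and replicate 1 gave 18 of 48, 37.5%, against 37.4% of other genes, whereas replicate 2 gave 10 of 48, 20.8%, against 35.8%.

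**Figure D4:**
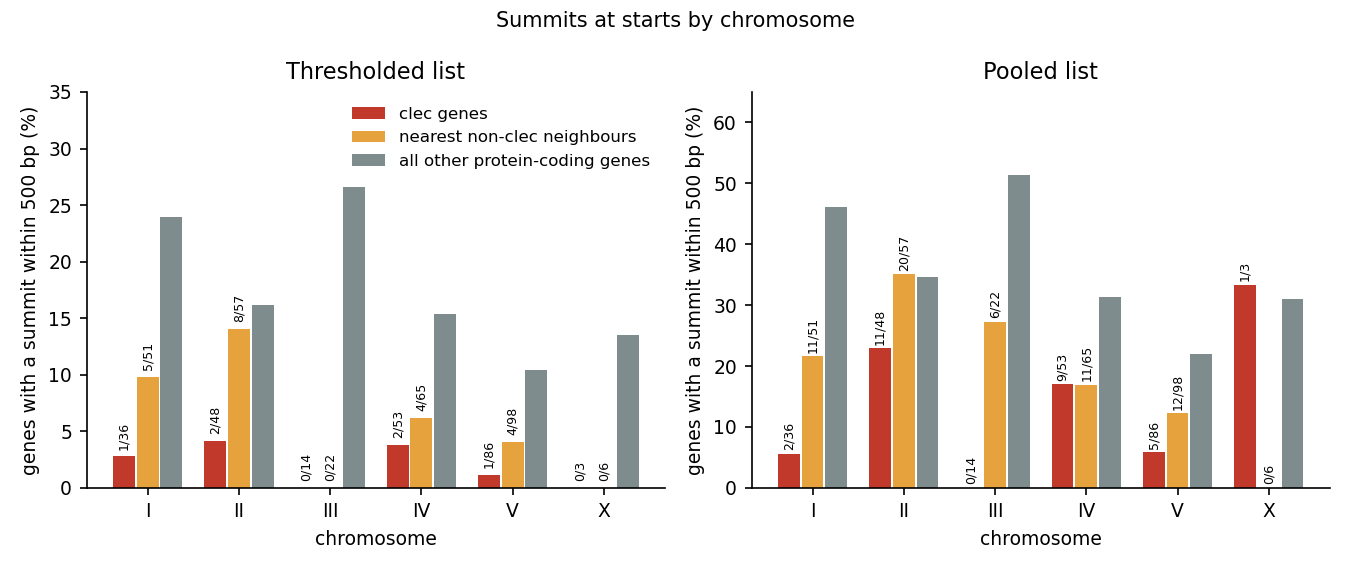
Share of genes with a summit within 500 bp of a start, in percent, by chromosome, for the thresholded list (left) and the pooled list (right). Bars are clec genes (red), their nearest non-clec neighbours (orange) and all other protein-coding genes (grey), with the counts behind the red and orange bars written above them. The clec bars lie below the grey bars on all 5 autosomes in both panels.

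The count was also set beside the rates of genes in like positions. In the outer 30% at each chromosome end lay 183 clec genes, 76.25%, against 54.6% of other genes. There 4 of 183 were bound, 2.19% against 15.4%, and in the middle 2 of 57 were, 3.51% against 18.4%. If clec genes had been bound at the rate of all other genes, 40.2 would have been called, at the rates of their own chromosomes 37.6, and at those of their chromosome and its outer or middle part 36.3. At the rate of their nearest neighbours the number would have been 16.9, against the 6 observed.

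The genes beside clec genes gave a share between that of the clec genes and that of genes at large. The nearest protein-coding gene on each side that was not a clec gene gave 299 genes, of which 21, 7.02% (4.40% to 10.54%), were bound. This lies above the 2.50% of the clec genes and below the 16.7% of all other genes, and the intervals of the clec genes and the neighbours overlap. In the pooled list 60 neighbours, 20.1%, had a summit at a start. The 23 chemoreceptor genes among the neighbours included no bound one, which allows up to 13.0% (3 counts). Of the 271 neighbours that were neither chemoreceptor nor F-box genes, 20 were bound, 7.38%. Taking other genes by distance from the nearest clec start, 8.81% were bound within 5 kb, 14.2% from 5 to 10 kb, 13.0% from 10 to 25 kb and 13.2% from 25 to 50 kb. Farther away it was 14.6% from 50 to 100 kb, 17.0% from 100 to 250 kb and 18.0% beyond, so the share did not rise at each step.

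Where neighbours were bound, their signals were not low. The 21 ran from 78.7 to 642 with a median of 199, against 207 over all bound genes. The highest were dnsn-1 with 642, next to clec-10, and efl-1, an E2F transcription factor, with 574, next to clec-239. They were followed by hmg-6 with 453, next to clec-113, hsp-1 with 422, next to clec-196, and uba-5, an activating enzyme of the UFM1 modifier, with 416, next to clec-53. None of the clec genes beside these except clec-196 was bound. Of the 217 clec genes with no bound neighbour 3 were bound, 1.38%, against 8.47% of other genes in that position. Of the 21 with 1 bound neighbour 2 were bound, 9.52% against 33.9%, and of the 2 with both neighbours bound 1 was, clec-87, against 53.6% of other genes. A gene and its neighbour can be called by the same summit, as clec-87 and rsa-1 were, so such calls are not independent. The other gene flanked on both sides was clec-264, between fkb-6 with 301 and ndua-1 with 377. Its own start had a pooled signal of 24.3, a replicate 1 signal of 8.25 and no summit in replicate 2.

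Shared promoters showed the same order. Among genes whose start faces away from another start on the opposite strand within 1000 bp, 3 of 53 clec genes were bound, 5.66%, against 38.9% of the other genes so arranged. Of the rest, 3 of 187 clec genes were bound, 1.60%, against 1950 of 16247 other genes. The share was higher for head-to-head genes in both groups. For the clec genes the intervals, 1.18% to 15.7% and 0.332% to 4.62%, overlap, so that difference is within counting error.

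Distances told the same of the surroundings. The median distance from a clec start to the nearest thresholded summit was 17324 bp, against 15363 bp for the neighbours and 7769 bp for the other genes. For 164 clec genes, 68.3%, it was over 10 kb, against 43.8% of other genes, and for 9, 3.75%, it was within 1 kb, against 20.8%. By chromosome the median was longest on V, at 42896.5 bp against 15133 bp for other genes there, and closest to that of other genes on II, at 8990 bp against 7091 bp.

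**Figure D5:**
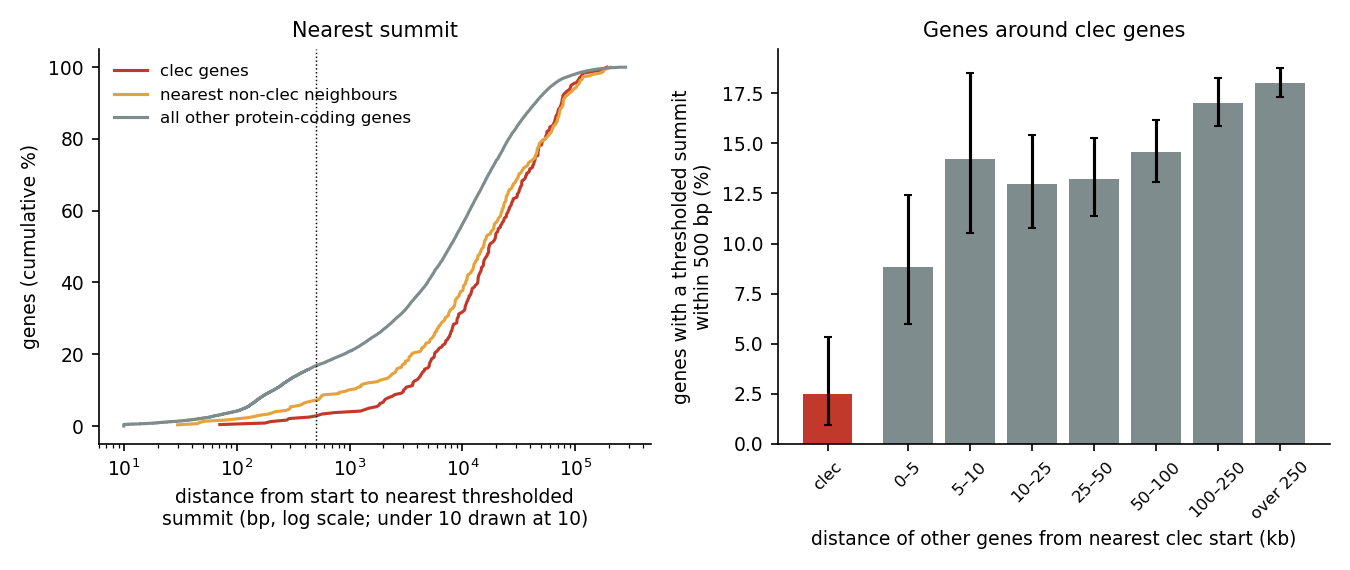
Left, cumulative percent of genes by distance from their start to the nearest thresholded summit (base pairs, log scale) for clec genes, their neighbours and all other protein-coding genes, with the 500 bp window dotted. Right, percent of genes bound, with exact 95% intervals, for clec genes (red) and for other genes by distance from the nearest clec start in kb, which is 8.81% within 5 kb, between 13.0% and 14.6% from 5 to 100 kb, and 18.0% beyond 250 kb.

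The tandem runs were poor in summits as stretches of sequence. Joining clec genes no more than 20 kb apart gave 125 runs, of which 20 held 3 or more genes and together 106 of the 240. These 20 runs covered 426 kb and contained 5 thresholded summits, 1.17 per 100 kb against 5.49 over the genome, and 53 pooled summits, 12.5 against 29.9 per 100 kb. A run was measured between the outer ends of its outermost clec genes. Summits just outside, such as that upstream of clec-57, were therefore not counted. By this measure no thresholded summit fell in 16 of the 20. Members of the runs were bound at about the rate of the others, 3 of 106, 2.83%, against 3 of 134, 2.24%. Members of 1 run share their surroundings and often their sequence, so they are not independent observations.

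The run with most clec genes, clec-40 to clec-33 on chromosome V (V:16839121-16869840), held 13 clec genes and no other gene. It had no thresholded, pooled or replicate 1 summit and 1 of replicate 2. The run with the next most, clec-67 to clec-78 on IV (IV:3922165-4014235), held 12 clec and 10 other genes, with 1 thresholded summit, that of clec-78, and 15 pooled, 21 replicate 1 and 20 replicate 2 summits. The run from clec-127 to clec-134 on II (II:3568117-3581475), with 7 genes in 13.4 kb, had 8 pooled summits and none of the thresholded list, and 3 of its genes had a pooled summit at the start. The run from clec-93 to clec-99 on I, also of 7 genes, had 4 replicate 1 summits and none in the other lists. The runs of 7 genes on II and I, of 13.4 and 16.7 kb, thus held 8 and 0 pooled summits. The runs of 13 and 12 clec genes were less alike in size, at 30.7 and 92.1 kb.

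Other large or related families gave a scale for these shares. The str genes, chemoreceptors of sensory neurons, had 0 of 193 bound, which allows up to 1.55% (3 counts), and 6 with a pooled summit. The cytochrome P450 and glucuronosyltransferase genes, which act on foreign compounds, had 4 of 141 bound, 2.84%, and 17 with a pooled summit, 12.1%, close to the values of the clec genes. Genes named col, dpy, rol, sqt or bli, most of them for the collagen cuticle, had 16 of 194 bound, 8.25%. In the pooled list 86 of the 194, 44.3%, had a summit at a start, above the 34% of all genes. Genes of this set were taken by symbol, so the 16 are not all collagen genes and include dpy-22, dpy-23, dpy-26 and dpy-30. The summits called for col-71, col-2, col-38 and bli-6 lay nearer to the start of another gene. Effectors of innate immunity other than clec genes, such as lysozymes, saposin-like proteins and galectins, had 14 of 160 bound, 8.75% (4.87% to 14.2%). In the pooled list 41 of the 160, 25.6%, had a summit at a start, against 34% of all genes. This set was taken by symbol and also holds cathepsin B-like cpr, aspartyl protease asp, fip, fipr and dod genes. No lysozyme gene was among the 14. The galectin genes lec-1, lec-4, lec-6 and lec-9 and the saposin-like genes spp-1, spp-2, spp-3, spp-5 and spp-14 were among the 14, with signals from 97.6 to 169.6 in this subset. The rest were fipr-17, the highest of the 14 with 535, fip-1, cpr-4, and asp-6 and asp-12, which share a summit.

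Among 52 regulators of immunity, 34 had a pooled summit at a start, 65.4%, against 34% of all genes. The bound share was also higher than the 16.6% of all genes, with 16 of 52 bound, 30.8% (18.7% to 45.1%). The highest were lin-35, the Retinoblastoma counterpart, with 859, at a start region shared with vps-51, and cebp-2, a C/EBP-type factor, with 594. They were followed by the SMAD gene sma-2 with 234, swsn-1 with 216, the bZIP gene zip-2 with 214 and the nuclear receptor gene nhr-49 with 189. Between 139.6 and 99.2 lay cebp-1, vhp-1, mlk-1, hif-1, the FOXO gene daf-16 and the adaptor gene tir-1. The lowest were nhr-8, pmk-3, the TFEB gene hlh-30 and nhr-86, from 86.3 to 82.8. The p38 kinase gene pmk-1, its upstream kinase gene nsy-1 and the intestinal GATA gene elt-2 had no pooled summit at a start, and sek-1, skn-1 and atf-7 had one below the threshold, with 27.5, 60.1 and 72.9. The regulators were listed by hand from general knowledge of infection responses, so their share depends on that choice. They include genes not confined to such pathways, such as lin-35 and swsn-1. They do not stand for all genes that control clec genes.

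The word TGATAA, printed in capitals above, stood in a larger share of clec start regions than of start regions at large. In the 300 bases from 250 before to 50 after the most upstream start, it occurred on either strand in 129 of 240 clec genes, 53.75%, against 30.2% of all protein-coding genes. The related word AGATAA, which shares its last 5 letters, occurred in 18.75% against 21.2%. GAGAG occurred in 32.1% against 39.9%, TATAAA in 45.4% against 37.9%, the palindrome CACGTG in 2.92% against 5.82% and the palindrome TGACGTCA in 1.67% against 1.51%. The thresholded summit windows of 201 bases, which are shorter, held TGATAA in 17.3% of cases, TATAAA in 13.1% and GAGAG in 55.8%. Base composition of the start regions was alike, with a median GC of 34% in clec genes and 34.3% in all genes, while the summit windows had 42.8%. A word in a window is a description and says nothing of a factor at that place.

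The uniqueness of the start regions was measured, since short reads from repeated sequence have no single place in the genome. The share of 32-base words within 500 bp of the start that occur once in the genome had a median of 99.95% in clec genes and 100% in the other genes. It was below 90% for 31 clec genes, 12.9%, and for 2367 of the 19733 other genes. Among the 209 clec genes at or above 90%, 5 were bound, 2.39%, and 1 bound member was below 90%. The share bound among other genes at or above 90% was not taken, so this count has no like background. The clec genes had a median length of 1787 bp against 2031 bp and a median coding length of 949.5 against 987 bases.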

How the data were processed

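Whole L4 hermaphrodites were assayed by ChIP-seq in 2 biological replicates of 1 group, per the labels. Per the submitters' file lists, the authors called peaks against a control alignment for each replicate and for the pooled alignments, and thresholded them by IDR. The sources used here name no aligner, peak caller or IDR threshold. The deposited signal value of each peak is a score of the authors whose scale is unknown. The deposited column of −log10 q-values, so named after the narrowPeak layout, served only for 1 alternative. The ce10 lists were not used.

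Summits were scored with Python 3.11.15, numpy 2.4.6 and pandas 2.3.3 against the Ensembl 115 annotation of WBcel235, using all transcript starts of each protein-coding gene. Intervals are exact Clopper-Pearson 95% intervals from scipy 1.17.1 and cover counting error only. Limits given for a count of 0 are instead 3 counts divided by the number of genes. Start regions were read from the WBcel235 genome. Protein sequences were not analysed here. The counting steps were tested on simulated data. Depth is unknown, since the lists hold no read counts. With 2 samples of 1 group no test was made. The alternatives were windows of 250 and 1000 bp, other starts, stricter and looser lists, each replicate alone and other neighbours.

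Named genes are the clec genes with a thresholded summit at a start or inside the gene, the 10 others of highest pooled signal at a start, the 5 of highest pooled signal inside the gene, the genes that share or lie nearest to these summits, the bound immunity regulators and the largest runs. Members, lists and tests were chosen with earlier results of these data known.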

Additional observations from a re-analysis of the deposited data

How the results depend on the processing

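The 6 bound clec genes became 3 with a window of 250 bp (11.3% of all genes, which the shares in later brackets also refer to), 2 with the 2750 strongest peaks (11.3%), 18 with the pooled regions of −log10 q of at least 2 (27.7%), and 3 when only summits nearest to the clec start were taken, which was added after the data were seen. The last of these has no share of all genes beside it. With the 5501 strongest regions of 1 replicate alone the bound clec genes were 5 without replicate 1 (17.1%) and 8 without replicate 2 (16.1%). In each case 4 were shared with the 6. The 2 members with a thresholded summit inside the gene became 22 at −log10 q of at least 2 (25.05%). They became 0 with the 2750 strongest peaks (3.11%) or with summits over 500 bp from a start (4.49%). Without replicate 1 there was 1 such member (7.06%), and without replicate 2 there were 4 (7.76%). The 28 pooled members became 50 at 1000 bp (40.04%) and 16 at 250 bp (25.9%). The 18 members in both replicate lists became 2 with the 5501 strongest regions of each (13.5%), 34 at 1000 bp (35.5%) and 10 at 250 bp (18.55%). The 21 bound neighbours became 38 at −log10 q of at least 2 (27.7%), 13 with the 2750 strongest peaks (11.3%) and 12 at 250 bp (11.3%). With all other genes within 10 kb they became 74 of 646 genes, 11.5% (16.6%). Without replicate 1 there were 21 (17.1%), and without replicate 2 there were 24 (16.1%). In these alternatives that have a background, the clec share stayed below it. In 16 alternatives, among them those with 1 replicate alone for the bound clec genes and the neighbours, the count moved by no more than 1.5 times.

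No paired analysis was possible because the series has 1 group and the counts come from no test. The lists carry no read counts, so how much sequencing depth limits the number of summits is unknown, and nothing can be said of sites below the lowest signal listed.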
